A study of Rattus norvegicus with 6 samples.

Results

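Immediate early genes are transcribed within minutes of a stimulus from factors that are already in the cell. Synaptic activity, growth factors or stress signal through calcium, cyclic AMP and MAP kinases to CREB and to the serum response factor, which bind the cyclic AMP response element (CRE) and the serum response element in the promoters of these genes. Their products include the AP-1 and EGR transcription factors, effectors at the synapse, and proteins that shut the response down again. In the retina such genes are known for responses to light and to injury.

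The 10 immediate early genes described here are Fos, Fosb, Fosl2, Jun, Junb, Jund, Egr1, Arc, Btg2 and Dusp1, and they were chosen by gene symbol, with letter case ignored. Each symbol matched 1 row, so 10 of the 19623 different symbols of the table are described, and all 10 rows carry the status OK. The series has 6 retinal RNA samples of rats at postnatal day 60. Sham-operated Long Evans rats (pigmented, wild type), sham-operated rats of the Royal College of Surgeons (RCS) strain, which lose their photoreceptors through a mutation of the phagocytosis receptor gene Mertk, and RCS rats with human neural progenitor cells (hNPCs) under the retina each gave 2 samples. Every animal was operated on at postnatal day 21, and the sham eyes received the medium without cells. The neural retina was taken, limited to the portion with the graft or to a corresponding portion of a sham eye. All groups therefore share the surgery, and it is not stated in the labels which samples come from separate animals.

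The table gives 1 FPKM per gene (fragments scaled to transcript length and sequencing depth) and 2 deposited bounds around it, and none of its columns names a sample or a group. The levels below therefore compare genes with one another in rat retinal RNA of this series. Levels by sample, by strain and by graft, the spread between animals, and tests between groups are not given. Which genes vary alike across samples cannot be described from 1 column. Variation among animals is in none of the intervals; apart from that of Fosl2, they are read as counting error, and in bulk RNA fewer cells of a type and less RNA per cell cannot be told apart.

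The promoters of the 3 members with the highest FPKM, Jund, Btg2 and Dusp1, each held the full CRE, TGACGTCA, which is shown in capitals in the 250 bases before the annotated start. No promoter was at hand for Fos, Jun and Arc, and the motifs were chosen after the levels had been seen. Whether the CRE goes with the level among all members therefore cannot be described. The promoter of Egr1 is shown for its CArG boxes (capitals), the core of the serum response element. All are from RefSeq, build GRCr8, 5′ to 3′ on the gene's strand: Jund at chr16:18769772-18770021 (minus strand), Btg2 at chr13:48087691-48087940 (minus), Dusp1 at chr10:17184603-17184852 (plus) and Egr1 at chr18:26736828-26737077 (plus).
Jund: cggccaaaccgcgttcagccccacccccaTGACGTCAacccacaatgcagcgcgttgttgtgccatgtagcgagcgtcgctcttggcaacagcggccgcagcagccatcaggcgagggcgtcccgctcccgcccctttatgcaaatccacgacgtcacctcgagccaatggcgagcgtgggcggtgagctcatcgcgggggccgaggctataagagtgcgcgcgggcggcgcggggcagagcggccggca
Btg2: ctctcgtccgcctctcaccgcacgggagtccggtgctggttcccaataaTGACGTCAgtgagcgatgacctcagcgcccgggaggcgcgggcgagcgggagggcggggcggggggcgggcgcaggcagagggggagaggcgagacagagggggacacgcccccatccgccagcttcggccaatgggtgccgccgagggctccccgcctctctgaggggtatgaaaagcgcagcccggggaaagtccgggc
Dusp1: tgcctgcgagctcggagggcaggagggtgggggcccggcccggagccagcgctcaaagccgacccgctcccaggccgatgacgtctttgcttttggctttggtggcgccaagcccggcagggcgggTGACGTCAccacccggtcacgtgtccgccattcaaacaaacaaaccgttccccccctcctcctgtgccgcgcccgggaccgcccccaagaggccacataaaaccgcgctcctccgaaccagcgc
Egr1: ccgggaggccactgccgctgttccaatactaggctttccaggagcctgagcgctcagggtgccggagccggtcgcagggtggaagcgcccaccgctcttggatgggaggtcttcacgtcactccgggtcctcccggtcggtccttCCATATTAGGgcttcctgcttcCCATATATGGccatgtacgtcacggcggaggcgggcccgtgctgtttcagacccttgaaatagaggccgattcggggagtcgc

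The RefSeq promoter table held 7 of the 10 members, namely Jund, Btg2, Dusp1, Egr1, Junb, Fosl2 and Fosb. For Fosb the annotated start lies 322 bases inside the gene's RefSeq span, so its window may be transcribed, while the other 6 windows end at the edge of the gene. Both strands of the 250 bases were searched, and a site that matches on both strands was counted once. The CRE was present in 3 of the 7 windows and in 1.59% of all 33469 windows of the same length. Counted by symbol, it was present for 2.51% of the 12970 symbols of the table with a promoter. It began 221 bases before the start in Jund, 201 in Btg2 and 124 in Dusp1. The 5-base core TGACG, which every CRE contains, was present in these 3 windows, in Egr1 and in Junb, and in 18.2% of all windows. Outside the full CRE, the core matched once more in Jund and in Dusp1.

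CArG boxes were present in 1 of the 7 windows, that of Egr1, which held 2, starting 105 and 83 bases before the start. Of all windows, 1.50% held one. An EGR site (GCGNGGGCG), the kind of sequence that the Egr1 protein binds, was present in Jund, Btg2 and Fosl2, against 4.29% of all windows, and Jund held 3 of them. The GC box (GGGCGG), which overlaps some of these EGR sites, was present in Jund, Btg2, Dusp1 and Fosl2 and in 30.5% of all windows. The letters TGANTCA, used for the AP-1 site with any base at N, were found in 0 of the 7 windows, against 6.34% of all. This pattern may be wider than the site itself, and 7 windows are too few to read a count of 0 at that share. The letters TATAAA were present in Junb, 49 bases before the start, and in Fosb, and in 12.9% of all windows. GC content was 68.4% in the Jund window, 72.0% in Btg2, 68.8% in Dusp1, 63.2% in Egr1, 66.0% in Junb, 70.4% in Fosl2 and 43.6% in Fosb; its part in these matches was not tested. A match describes the letters of the window and does not show that a protein binds there.

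**Figure D1:**
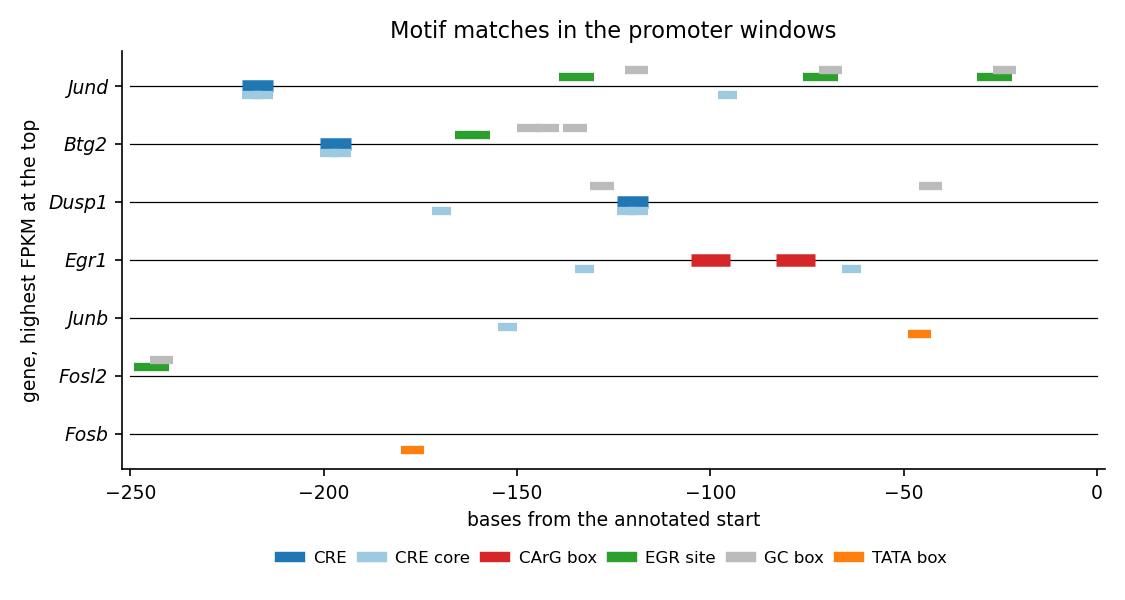
Motif matches on either strand in the 250 bases before the annotated start of the 7 members with a RefSeq promoter, by position in bases from the start, with genes ordered by FPKM. The full CRE lies in the 3 upper genes, at 221, 201 and 124 bases before the start, and the 2 CArG boxes lie in Egr1; the Fosb window lies inside the gene's span.

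AP-1 is a dimer of a Jun protein with a Fos protein or with another Jun protein, and the Jun side was the higher one in this table. Jund, the Jun family member known for steady expression in resting cells, was at 20.8 FPKM (deposited interval 17.9 to 23.7), the highest of the 10. Junb was at 4.97 FPKM (3.58 to 6.36) and Jun, the founding member of the family, at 4.55 FPKM (3.19 to 5.91). On the Fos side, Fos was at 4.63 FPKM (3.59 to 5.67), Fosl2 (Fra-2) at 1.83 FPKM (0 to 3.69) and Fosb at 0.586 FPKM (0.336 to 0.836).

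Jund alone made up 55.7% of the summed FPKM of the 6 AP-1 genes. Junb, Fos and Jun held similar shares of 13.3%, 12.4% and 12.2%, Fosl2 held 4.89% and Fosb 1.57%. The Jun genes summed to 30.3 FPKM and the Fos genes to 7.04 FPKM, a ratio of 4.31 (95% interval from the deposited bounds 3.13 to 5.93, which takes in the wide bounds of Fosl2). Without Fosl2 the ratio was 5.82, and with the fragment numbers that the intervals imply, which are not divided by length, it was 2.93. Without Jund the ratio was 1.35, so the excess of Jun transcripts rests mainly on that gene. Fos and Jun, the classical pair, differed by a factor of 1.02 (0.705 to 1.47), within counting error.

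The rows of the Jun genes are short. In build rn5, Jund (ENSRNOG00000019568) spans chromosome 16 from 20342643 to 20343668, Jun (ENSRNOG00000026293) chromosome 5 from 117958961 to 117959965, and Junb (ENSRNOG00000042838) chromosome 19 from 37069075 to 37070109. These spans are 1026, 1005 and 1035 bases, all multiples of 3, and 61.1%, 32.5% and 58.0% of the genes' RefSeq lengths in GRCr8. Such spans may hold the coding part alone, but no coding coordinates of that build were at hand to check this. The spans of Egr1, Dusp1 and Fosl2 are multiples of 3 too, at 99.6%, 99.96% and 83.1% of the RefSeq lengths. A multiple of 3 therefore does not by itself mark a coding part. The row of Fos (ENSRNOG00000008015, chromosome 6, 116249742 to 116252608) spans 2867 bases, the same as in GRCr8. That of Fosb (ENSRNOG00000046667) lies on chromosome 1 from 81481174 to 81487900, and that of Fosl2 (ENSRNOG00000047255) on chromosome 6 from 35422541 to 35440258. No other row of the table overlaps any of the 10 members. The row of Btg2 spans 3760 bases, also the same as in GRCr8. Whether the short gene models shift the level of the Jun genes against the Fos genes was not tested. The same holds for the Jun genes against Egr1, Arc, Btg2 and Dusp1, and so for the feedback to AP-1 ratio below.

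Egr1, a zinc finger factor induced by growth factors and synaptic activity, was at 5.27 FPKM (4.51 to 6.04), rank 4 among the members. Its row (ENSRNOG00000019422) spans chromosome 18 from 27369166 to 27372951. It exceeded Junb by a factor of 1.06 (0.778 to 1.45), which is within counting error. Within the EGR family, Egr1 held 93.7% of the summed FPKM of 4 genes. The other EGR genes, named as a family after their values had been seen, were far lower. Egr3 was at 0.270 FPKM on an implied 4 fragments, Egr4 at 0.084 FPKM on an implied 2, and Egr2 was listed at 0.

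Arc, whose protein acts at the synapse and whose transcription follows neuronal activity, was the lowest member at 0.115 FPKM (0 to 0.230). Its row (ENSRNOG00000043465) lies on chromosome 7 from 115812499 to 115815943. The value rests on an implied 4 fragments, for which the exact 95% Poisson interval is 0.031 to 0.295 FPKM. Npas4, another neuronal activity gene, named after its value was seen, stood at 0.072 FPKM (0 to 0.174) on an implied 2 fragments. Arc was lower than 72.8% of the symbols of the table, whereas Jund was higher than 85.9% of them.

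The 2 feedback regulators held ranks 2 and 3. Btg2, an antiproliferative protein that promotes mRNA deadenylation, was at 15.0 FPKM (13.6 to 16.5), and its row (ENSRNOG00000003300) spans chromosome 13 from 55966299 to 55970058. Dusp1, a nuclear phosphatase that inactivates MAP kinases, was at 10.8 FPKM (9.40 to 12.2), with its row (ENSRNOG00000003977) on chromosome 10 from 16867370 to 16870162. Btg2 was 1.39 times Dusp1 (1.18 to 1.63). The mean of both, 12.9 FPKM, was 2.08 times the mean of the 6 AP-1 genes, 6.23 FPKM (ratio interval 1.82 to 2.37). Against the AP-1 genes without Jund the ratio was 3.90, of medians it was 2.82, and by implied fragment numbers it was 4.81. Dusp1 was 2.05 times Egr1 (1.69 to 2.49).

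**Figure D2:**
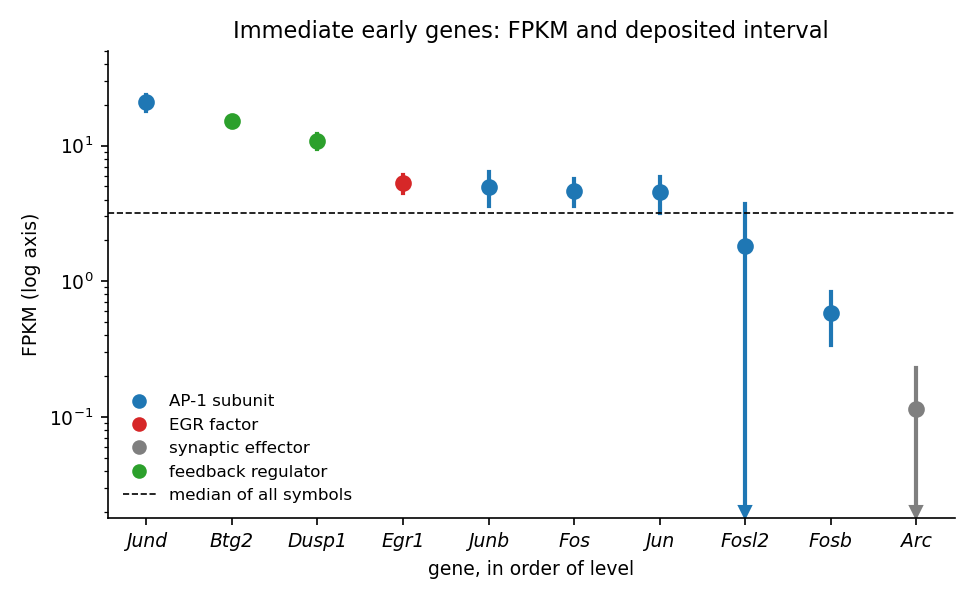
FPKM (log axis) of the 10 genes in order of level, coloured by role, with the deposited interval as a line; arrows mark a lower bound of 0, and the dashed line is the median of all symbols, 3.17 FPKM. Jund, Btg2 and Dusp1 lie above the rest, 4 genes lie close together between 4.55 and 5.27 FPKM, and Arc lies lowest at 0.115 FPKM.

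In descending order the members were Jund, Btg2, Dusp1, Egr1, Junb, Fos, Jun, Fosl2, Fosb and Arc, and the highest was 181 times the lowest. The ratio interval from the deposited bounds lay above 1 for 5 of the 9 neighbouring pairs. Of these 5, the pair of Fosl2 and Fosb rests on the bounds of Fosl2, which are not read as counting error, and the deposited bounds of that pair overlap. Jund was 1.38 times Btg2 (1.17 to 1.63), Fosl2 was 3.11 times Fosb (1.05 to 9.21), and Fosb was 5.09 times Arc (1.76 to 14.8). Egr1, Junb, Fos and Jun could not be ordered by counting error. Jun was 2.49 times Fosl2, with an interval from the deposited bounds that includes 1 (0.879 to 7.08). Of the 36 pairs without Fosl2, the interval lay above 1 in 30. The factors compare genes by FPKM, and no replicate error is available for any of them. They depend on the length of each gene model: Jund, first by FPKM, rests on an implied 211 fragments and Btg2 on 429. Whether the short models of the Jun genes shift the order was not tested.

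Of the 10 members, 8 reached 1 FPKM, against 61.0% of all symbols (11973 of 19623), and those below were Fosb and Arc. The median of the members was 4.80 FPKM, against 3.17 FPKM over all symbols and 6.37 FPKM over the 14989 symbols above 0. All 10 members together made up 0.020% of the table's total FPKM.

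The depth behind each level follows from its interval, if the bounds lie 2 standard errors from the value and reflect counting alone. The implied fragment number lay within 0.02 of a whole number for 9 of the 10 members: 429 for Btg2, 231 for Dusp1, 211 for Jund, 189 for Egr1, 79 for Fos, 51 for Junb, 45 for Jun, 22 for Fosb and 4 for Arc. One fragment was worth 0.101 FPKM in Jun and 0.028 FPKM in Egr1, so a like FPKM was measured with fewer fragments in the Jun genes. Fosl2 was the exception. Its interval implies 3.83 fragments, which is not a whole number, and its upper bound lies 102% above the value. Its interval is therefore not read as counting error, and its place in the order is the least certain of the 10.

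**Figure D3:**
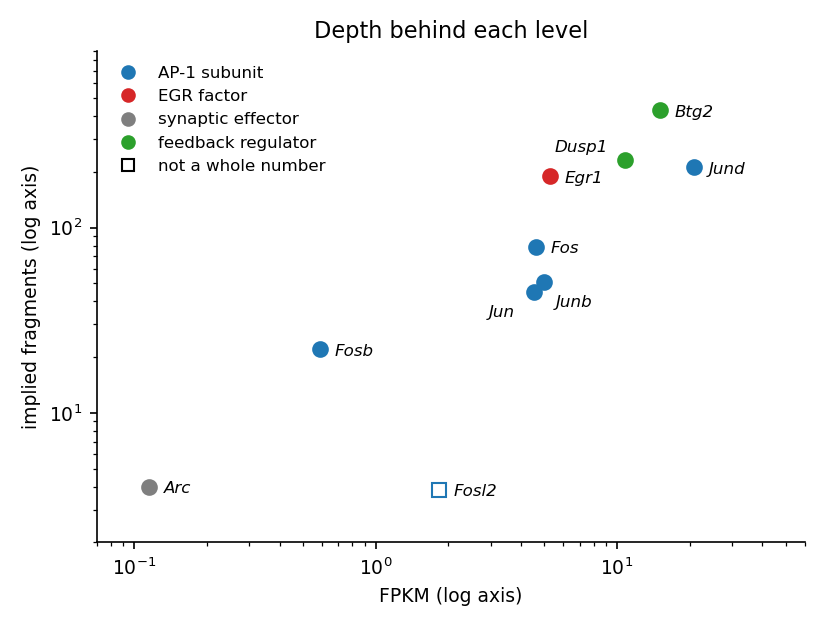
Implied fragments against FPKM for the 10 genes (log axes), coloured by role; the open square marks the implied number that is not whole. Btg2 rests on 429 fragments and Jun on 45, while Fosl2 lies apart at 1.83 FPKM with an implied 3.83.

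Other genes of the pathway were taken from 7 lists of 151 genes, of which 149 were matched and 126 reached 1 FPKM. Of all symbols, 61.0% reached 1 FPKM, which is the background for this count and for the list counts below. Upstream, the MAP kinase cascade had a median level of 18.3 FPKM, and all 21 matched genes reached 1 FPKM. Named from it here are Map2k2 at 53.8 FPKM, an activating kinase of the ERK branch, and Map2k7 at 28.5 FPKM, an activating kinase of the JNK branch, whose targets phosphorylate Jun. Of the 29 matched upstream transcription factors and kinases, 27 reached 1 FPKM (median 7.69 FPKM), led by the calcium/calmodulin-dependent kinase subunits Camk2d at 61.9 FPKM and Camk2b at 37.3 FPKM and by the activity-regulated factor Mef2d at 39.8 FPKM.

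Among the other AP-1 and CRE-type bZIP genes, 18 of 23 reached 1 FPKM (median 5.72 FPKM). The products of some of them can pair with or compete with Fos and Jun proteins. Atf4, a stress-response factor regulated mostly in translation, stood at 319 FPKM, well above Creb3, a membrane-bound factor, at 26.7 FPKM and Atf2, a partner of Jun, at 19.5 FPKM. The list of other EGR and NR4A factors with their NAB corepressors was the lowest of the 7: 4 of 10 reached 1 FPKM, with a median of 0.322 FPKM. Its highest genes were Nab1 at 4.55 FPKM and Nab2 at 3.03 FPKM, corepressors of EGR proteins, and Nr4a1, an orphan nuclear receptor, at 3.14 FPKM. Egr1 was above all 10, but its deposited bounds (4.51 to 6.04 FPKM) overlap those of Nab1 (3.96 to 5.13 FPKM).

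Among other immediate early transcription regulators, 14 of 18 reached 1 FPKM and the median was 5.55 FPKM; the highest were Tsc22d1, a leucine zipper regulator, at 134.6 FPKM, Cited2, which binds the coactivators CBP and p300, at 36.6 FPKM, and Id3, an inhibitor of bHLH factors, at 25.4 FPKM. Among other effectors, 20 of 24 reached 1 FPKM and the median was 3.93 FPKM. The highest were the kinase gene Sgk1 at 64.3 FPKM, the mTOR activator gene Rheb at 52.3 FPKM and the growth arrest gene Gadd45a at 18.3 FPKM. Arc was below all 24, though its deposited bounds overlap those of Pim1 (0.139 to 0.999 FPKM). Other feedback phosphatases and decay factors reached 1 FPKM in 22 of 24 cases, with a median of 7.30 FPKM. The leading genes there were the relatives of Btg2, with Btg1 at 63.0 FPKM, Tob2 at 59.0 FPKM summed over 2 rows and Tob1 at 35.1 FPKM. Btg2 thus ranked 4 among the 5 BTG and TOB genes listed, and Dusp1 ranked 3 among the 10 dual-specificity phosphatase genes listed. Genes of these families outside the lists were not ranked. Dusp8, chosen after its value was seen, stood at 10.8 FPKM (9.46 to 12.1), level with Dusp1 within counting error.

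**Figure D4:**
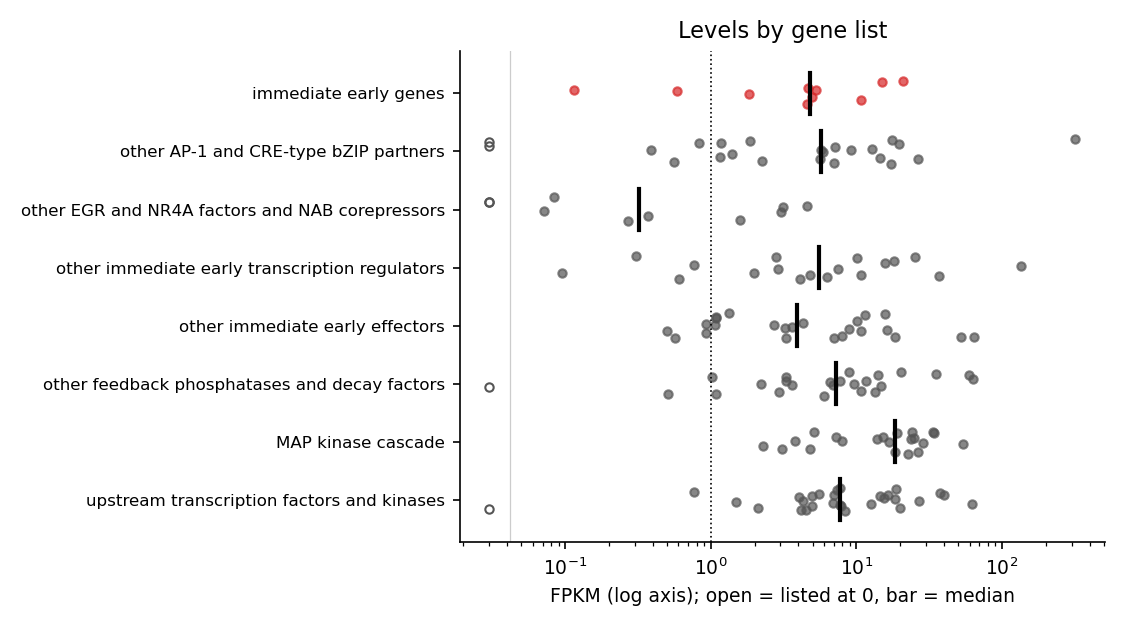
FPKM (log axis) of the 10 members (red) and of 7 lists of other pathway genes (grey), 1 point per gene, with the median as a bar, a dotted line at 1 FPKM and open circles for genes listed at 0. The MAP kinase cascade has the highest median, 18.3 FPKM, and the EGR, NR4A and NAB list the lowest, 0.322 FPKM.

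The labelled tissue was checked against markers. All 24 rod and cone, bipolar, amacrine, ganglion, Müller glia and astrocyte markers reached 1 FPKM, against 61.0% of all symbols. Gnat1 was at 6316 FPKM and Glul at 617 FPKM. Markers of cells outside these classes were also present: microglia markers summed to 16.2 FPKM with Cd68 listed at 0, endothelium and pericyte markers to 87.4 FPKM, pigment epithelium markers to 188 FPKM, and lens and blood markers to 454 FPKM. Levels within these last lists were uneven. Kdr was at 52.2 FPKM, Rgs5 at 27.1 FPKM, Cldn5 at 3.75 FPKM, Pdgfrb at 2.34 FPKM and Pecam1 at 1.91 FPKM. Ttr was at 152 FPKM, Rpe65 at 20.7 FPKM, Tyrp1 at 14.2 FPKM and Best1 at 0.270 FPKM. Of the lens genes, Cryaa was at 427 FPKM, Lim2 at 1.81 FPKM and Mip at 1.60 FPKM. The blood genes Hbb and Hba1 were at 13.2 and 10.3 FPKM. The sums are therefore no measure of how much of each cell type was present. Immediate early genes are expressed in several of these cell types, and the part of each in the levels above was not tested.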

How the data were processed

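RNA sequencing libraries of 6 rat retina samples in 3 groups were made with an Ion Total RNA-seq kit, per the labels' protocols. The authors deposited a Cufflinks gene table in FPKM with a lower and an upper bound, per the file headers; per the submitters' processing notes, the tool was Cufflinks 2.0.8 and the build rn5. Not given in the sources used here were the aligner, annotation release, confidence level, strand setting and any pooling. Total depth per sample is unknown.

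Rows were matched by symbol with case ignored, and rows of 1 symbol were summed (Python 3.11.15, numpy 2.4.6, pandas 2.3.3, scipy 1.17.1). Standard errors were taken as the distance to the upper bound divided by 2, and 95% ratio intervals were computed on the log scale; except for Fosl2 they are read as counting error. Starts in the deposited table count from 0, since 94.7% of 1131 olfactory receptor spans were then multiples of 3, and 1 was added. The members and lists were chosen with earlier results of these data known, and the motifs and the promoters shown after the levels had been seen. By rule, all members and the 3 highest genes of each other pathway list are named, except that some items are not reported here. The limma comparisons between groups that had been planned were not run, because no column names a sample. Alternatives covered the summing of rows, minimum FPKM, unit, interval and low or uncertain members.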

Additional observations from a re-analysis of the deposited data

How the results depend on the processing

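No paired analysis was possible because only 1 FPKM column was at hand, tied to no sample; the replicate block and the pseudocount were therefore not run. Keeping the highest row per symbol changed none of the 10 levels, since each member has 1 row, so it says nothing about their stability. With implied fragments, which are not divided by length, the ratio of Jun to Fos genes was 2.93 in place of 4.31, the feedback to AP-1 ratio 4.81 in place of 2.08, and the median of the members 65.0 fragments. Without Jund (chosen after seeing the data) these ratios were 1.35 and 3.90, and with medians the latter was 2.82. The Jun to Fos ratio was 4.70 without members under 1 FPKM and 5.82 without Fosl2 (chosen after seeing the data). The count of members at the minimum was 9 at 0.5 FPKM, 7 by the lower bound and 4 at 5 FPKM. The share of all symbols is given for the level at 1 FPKM only (61.0%), so these counts have no like background beside them. Of the 9 neighbouring pairs, 4 had separate deposited bounds, the pair of Fosl2 and Fosb no longer among them, and 4 of the 7 pairs without Fosl2 had an exact interval above 1 (chosen after seeing the data). With Fosl2 left out and Jun set beside Fosb, 5 neighbouring pairs had a ratio interval above 1. Depth limits Arc, with 4 fragments. For Fosl2, whose interval is not read as counting error, the depth is not known. Its implied 3.83 nevertheless enters both ratios by implied fragments.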

Other observations

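The CRE was then looked for in the promoters of the other pathway genes, after the members' matches had been seen. Of 122 genes of the 7 lists with a RefSeq promoter, 7 held the full CRE in the 250 bases before the start, against 2.51% of the 12970 symbols of the table with a promoter. Among them, Crem, a CRE-binding factor gene that includes a repressor form, was at 14.5 FPKM, the kinase gene Plk2 at 10.1 FPKM, Mapk10 (JNK3) at 15.3 FPKM, Ier2 at 6.30 FPKM, the neuropeptide precursor gene Vgf at 3.60 FPKM and Maff at 0.561 FPKM.

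Over the table, 326 symbols with a CRE in this window had a median of 10.3 FPKM, and 84.7% of them reached 1 FPKM. The 12644 symbols with a promoter but no CRE had a median of 4.58 FPKM, and 67.9% reached 1 FPKM. Median GC content of the windows was 60.8% with and 58.0% without a CRE, and its part in the difference was not tested. These values describe genes, which are not replicates.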
